A study of Homo sapiens with 8 samples.

Results

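Transcripts of 10 chemokine genes were followed in sublines of 2 human esophageal squamous carcinoma lines that differ in how readily they cross a porous membrane. The genes are CXCL8, CXCL1, CXCL2, CXCL3, CXCL5, CXCL10, CXCL16, CCL5, CCL20 and CX3CL1. They were matched to 18 of the 54675 probe sets of an Affymetrix array, taking only probe sets annotated to a single gene, and they make up 10 of the 19775 genes named in this way. Each gene was read from its probe set with the highest mean over the 8 arrays, and its other probe sets were used as a check. The genes were picked with earlier results of these arrays known, so the adjusted p-values below describe the fit and are no independent support for the choice.

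The 4 groups, 180D, 180U, 30D and 30U, had 2 arrays each. The D sublines of KYSE180 and KYSE30 had passed through a transwell membrane and are labelled as the more motile cells, while the U sublines had not passed. All 4 groups went through 4 rounds of selection and were grown for 2 passages after harvest before RNA was taken. The sublines are selected populations, with no label of clonal origin, and each D subline shares 1 of 4 parental populations with 1 U subline. Each line stands for a single tumour. The study asked which transcripts differ between cells of one line that migrate to a different degree.

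Chemokines are small secreted proteins that draw cells along a gradient by binding G protein-coupled receptors, and they are grouped by the spacing of their first cysteines into CXC, CC and CX3C types. CXCL8, CXCL1, CXCL2, CXCL3 and CXCL5 carry a short glutamate-leucine-arginine motif and attract neutrophils through CXCR2, with CXCL8 also binding CXCR1. Epithelial and squamous carcinoma cells make several of them, and their genes are classical targets of NF-kB, whereas CXCL10 is a classical interferon-induced gene and CCL5 responds to both kinds of signal.

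Levels are RMA values on the log2 scale as the authors deposited them, and changes are log2 differences with their SE. Pearson's r across the 14180 genes tested was 0.997 to 0.998 between the arrays of a group and 0.860 to 0.869 between lines. The 3′ minus 5′ log2 signal of the beta-actin control, a sign of RNA quality, was 1.92 and 1.42 in 180D, against 1.36 and 1.398 in 180U, and 1.06 and 1.23 in 30D, against 1.25 and 1.27 in 30U. It was thus higher in D in KYSE180 and lower in D in KYSE30, with no overlap of groups, and 180D replicate 1 stood apart from the other arrays. For the GAPDH control it was 0.153 and 0.140 in 180D, against 0.102 and 0.109 in 180U, while the KYSE30 groups overlapped. All 8 squamous epithelial markers with a probe set passed the filter. Of these, 0 passed between D and U in KYSE180 by limma, with 3 at an unadjusted p under 0.05, where 3.75% of all genes were called. In KYSE30, where 16.5% of all genes were called, 1 of the 8 passed in each direction. The one that fell there was SOX2, a squamous lineage transcription factor, with means of 7.86 in 30D and 9.80 in 30U (-1.94, limma adjusted p = 7.72e-06). The one that rose was the basal squamous keratin KRT14 (limma adjusted p = 0.00892), tested because its mean over the 8 arrays was 8.67. It averaged 13.4 in 180D and 13.6 in 180U, but 4.13 in 30D and 3.54 in 30U. Both KYSE30 means lay below 4.46, the value that a gene's mean over the 8 arrays had to reach to be tested. That value is the 40th percentile of all probe set means, and it stands in for background because the files hold no detection call. KRT5 and PKP1 lay near it in KYSE30, at 4.84 and 4.61 in 30D and at 4.63 and 4.90 in 30U. In 180D they averaged 12.3 and 10.2.

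The CXC genes other than CXCL16 lie on chromosome 4, and the protein-coding genes from CXCL8 to CXCL2 there are all chemokines in the order CXCL8, CXCL6, PF4V1, CXCL1, PF4, PPBP, CXCL5, CXCL3 and CXCL2. Promoter windows were taken from RefSeq (GRCh38.p14) for the 7 members with an entry there. They are shown because 6 of the 7 members hold the same 9 letters, GGAATTTCC, of the type bound by NF-kB, within 250 bases before their start. Over all 35116 promoters of that length, 0.413% hold these letters on either strand. Only these exact letters were counted as NF-kB-type, and the windows are shown because they match. The promoters of CXCL1, CXCL2 and CXCL3 also resemble each other, so their matches are not independent. The shares are thus a description, and enrichment was not tested. The windows below cover the 200 bases before the start, 5′ to 3′ on the strand of the gene, with the match in capitals. CXCL8 is chr4:73740369-73740568 and CXCL1 chr4:73869193-73869392, both on the plus strand. On the minus strand are CXCL2 at chr4:74099196-74099395, CXCL3 at chr4:74038690-74038889, CXCL5 at chr4:73998678-73998877 and CXCL10 at chr4:76023498-76023697.
CXCL8: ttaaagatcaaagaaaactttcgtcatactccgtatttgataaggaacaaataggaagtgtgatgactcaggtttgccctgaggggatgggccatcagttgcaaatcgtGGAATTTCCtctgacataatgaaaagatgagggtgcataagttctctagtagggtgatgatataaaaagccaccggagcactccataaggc
CXCL1: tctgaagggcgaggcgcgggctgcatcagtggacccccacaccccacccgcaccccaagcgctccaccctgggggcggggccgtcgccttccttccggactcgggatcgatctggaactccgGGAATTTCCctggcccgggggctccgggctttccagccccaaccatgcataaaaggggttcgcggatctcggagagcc
CXCL2: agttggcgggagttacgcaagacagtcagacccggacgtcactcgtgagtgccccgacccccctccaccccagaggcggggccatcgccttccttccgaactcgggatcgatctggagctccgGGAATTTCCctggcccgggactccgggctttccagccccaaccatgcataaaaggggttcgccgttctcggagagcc
CXCL3: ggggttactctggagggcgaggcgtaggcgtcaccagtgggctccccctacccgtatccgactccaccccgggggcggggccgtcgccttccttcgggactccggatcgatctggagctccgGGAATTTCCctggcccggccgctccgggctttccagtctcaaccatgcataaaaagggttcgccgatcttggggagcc
CXCL5: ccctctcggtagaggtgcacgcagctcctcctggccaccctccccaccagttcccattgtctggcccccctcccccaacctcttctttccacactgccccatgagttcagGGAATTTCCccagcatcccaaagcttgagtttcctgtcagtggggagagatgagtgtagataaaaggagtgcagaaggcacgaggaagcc
CXCL10: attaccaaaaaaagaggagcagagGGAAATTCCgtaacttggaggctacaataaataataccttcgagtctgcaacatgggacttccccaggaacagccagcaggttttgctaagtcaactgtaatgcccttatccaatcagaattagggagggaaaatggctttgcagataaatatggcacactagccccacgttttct

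The match began 91 bases before the start in CXCL8, 78 in CXCL1, 77 in CXCL2, 78 in CXCL3 and 90 in CXCL5. In CXCL10 it began 176 bases before the start and lay on the opposite strand. Over the 250 bases before the start, CXCL1 and CXCL3 were 81.4% identical over 258 aligned positions, CXCL2 and CXCL3 73.4% over 267 and CXCL1 and CXCL2 70.1% over 281. An AP-1 motif, TGANTCA on either strand, was found only in CXCL8 among the 7 members and began 137 bases before its start, against 6.57% of all promoters. These are matches of letters and were not tested as binding sites, and the NF-kB and AP-1 letters do not overlap in CXCL8.

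The members spanned a wide range of levels. Of the 10, 6 had a mean over the 8 arrays past the filter value and were tested, namely CXCL8, CXCL1, CXCL2, CXCL16, CCL5 and CX3CL1. The filter parted near neighbours, since CXCL2 just passed it with a mean of 4.460 and CXCL3 just missed it with 4.428 (filter value 4.456). CXCL5, CXCL10 and CCL20 lay lower, with means of 2.61, 3.99 and 2.78, and their values are given without a test.

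**Figure D1:**
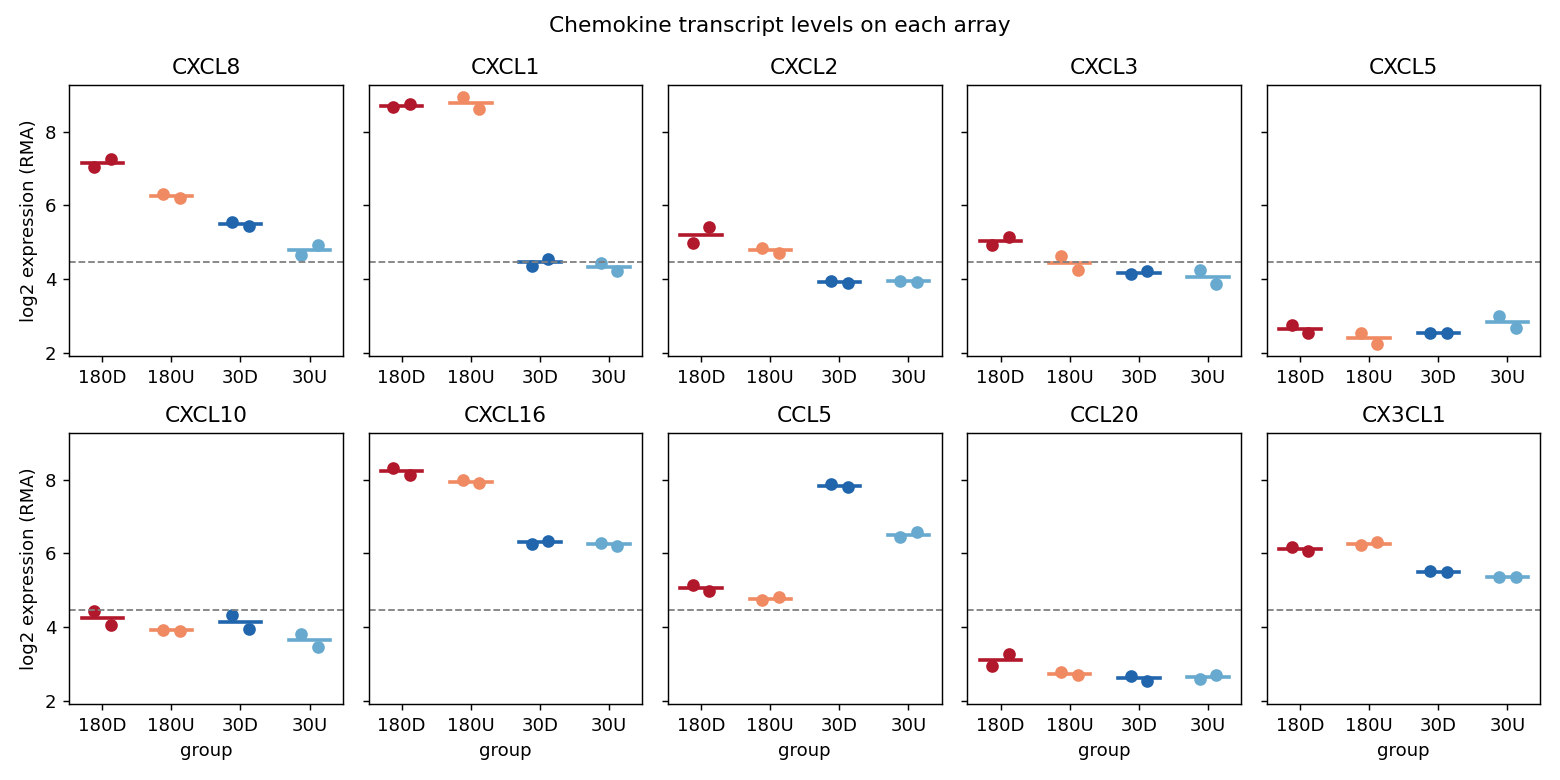
Log2 expression (RMA, vertical axis) of the 10 chemokine genes in the groups 180D, 180U, 30D and 30U, with 1 point for each array, a bar at the group mean and a dashed line at the filter value of 4.46. CXCL1 stands near 8.7 in both KYSE180 groups and at the dashed line in both KYSE30 groups, CCL5 is highest in 30D, and CXCL8 steps down in the order of the groups.

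CXCL8, also known as interleukin-8, was higher in the membrane-passing cells of both lines. It read 7.05 and 7.26 in 180D, against 6.31 and 6.21 in 180U. In KYSE30 it read 5.56 and 5.45 in 30D, against 4.66 and 4.92 in 30U. The groups did not overlap in either line, and no 2 neighbours in the order 180D, 180U, 30D, 30U overlapped. CCL5 and CX3CL1 likewise had no overlapping neighbours in their own orders. With 2 arrays in each group, absence of overlap is a weak criterion, and its share over all genes was not counted.

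The change was 0.90 ± 0.11 in KYSE180 (1.86-fold, limma adjusted p = 0.00590) and 0.71 ± 0.11 in KYSE30 (1.63-fold, limma adjusted p = 0.00606). Within parental populations the D subline exceeded its U partner by 0.95 and 0.84 in KYSE180 and by 0.90 and 0.52 in KYSE30. The difference between the changes of the lines was 0.19, with a 95% interval from -0.17 to 0.54 (limma adjusted p = 0.472). In such bulk samples more RNA per cell and more cells that make it cannot be told apart.

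The call in KYSE180 was lost without 180U replicate 2 (0.85, limma adjusted p = 0.0541), and it was kept when 180D replicate 1, whose beta-actin signal differed, was left out (1.00, limma adjusted p = 0.0238). The other CXCL8 probe set, 211506_s_at, read lower and moved less. It gave 5.48 and 5.90 in 180D, against 5.13 and 5.08 in 180U, and 4.32 and 4.43 in 30D, against 4.19 and 4.04 in 30U. Its groups did not overlap either, with changes of 0.58 ± 0.13 in KYSE180 (limma adjusted p = 0.0805) and 0.26 ± 0.13 in KYSE30 (limma adjusted p = 0.258), neither past the threshold, and both KYSE30 groups lay below the filter value.

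Of the 8 fibroblast markers 4 passed the filter, and 1 of these 4, COL1A1, rose in 180D (0.58, limma adjusted p = 0.0350). Of all genes, 3.75% were called in KYSE180. DCN (0.22), PDGFRB (0.11) and THY1 (0.02) did not pass there, and COL1A2, COL3A1 and LUM averaged 3.71, 3.63 and 2.82, below the filter value. The summed level of the 8, of which COL1A1 is the brightest, was 8.58 to 8.77 in 180D and 8.31 to 8.34 in 180U on the log2 scale. In KYSE30 it was at most 8.06 in 30D and at least 8.16 in 30U. There 0 of the 4 passed by limma, with 1 at an unadjusted p under 0.05, where 16.5% of all genes were called.

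The summed level of the squamous markers, in which the brightest weigh most, was lower in D in both lines without overlap of groups. It was 14.96 to 15.03 in 180D and 15.09 to 15.15 in 180U, and 13.38 to 13.45 in 30D and 13.49 to 13.51 in 30U. The median change of the 8 was -0.07 in KYSE180 and 0.05 in KYSE30. In KYSE30 CDH1, ITGA6, KRT5 and KRT14 averaged higher in D, and EPCAM, SOX2, DSG3 and PKP1 lower. The parts of these markers, of SOX2 and of the beta-actin signal in the changes of CXCL8 and CCL5 were not tested.

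CCL5, also known as RANTES, attracts T cells and monocytes, and it was the member with the largest change between D and U. It read 7.87 and 7.79 in 30D, against 6.44 and 6.57 in 30U. In KYSE180 it read 5.15 and 4.98 in 180D, against 4.75 and 4.81 in 180U. The groups did not overlap in either line, and 30U stood above 180D.

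The rise was 1.33 ± 0.08 in KYSE30 (2.51-fold, limma adjusted p = 0.000136), or 1.44 and 1.22 within the 2 parental populations. In KYSE180 the change was 0.29 ± 0.08 (limma adjusted p = 0.107), or 0.23 and 0.34 within populations. The change in KYSE180 was smaller than that in KYSE30 by a direct test of the difference (-1.04 ± 0.11, limma adjusted p = 0.00221). With the median of the CCL5 probe sets in place of the brightest, the difference was -0.93 and did not pass (limma adjusted p = 0.0567).

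All 3 CCL5 probe sets rose in KYSE30. Besides the one used, 204655_at rose by 1.19 ± 0.18 (limma adjusted p = 0.00847) and 1405_i_at by 1.41 ± 0.07 (limma adjusted p = 0.000141). In KYSE180, 204655_at read 5.14 and 4.58 in 180D, against 4.70 and 4.42 in 180U, so its groups overlapped. Probe set 1405_i_at read 3.37 and 3.27 in 180D, against 2.32 and 2.32 in 180U, a difference of 1.00 ± 0.07 (limma adjusted p = 0.000858) between levels that all lay below the filter value.

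**Figure D2:**
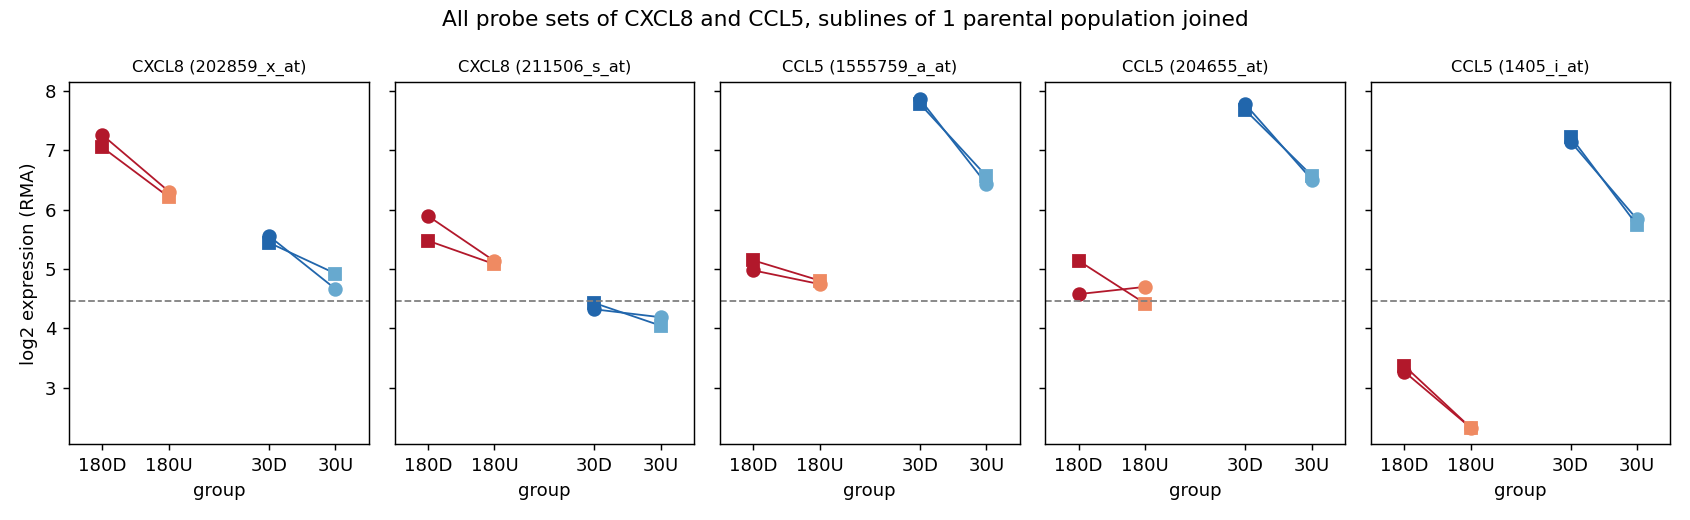
Log2 expression (RMA, vertical axis) of the 2 CXCL8 and 3 CCL5 probe sets in 180D, 180U, 30D and 30U, with lines joining the D and U sublines of 1 parental population (circles and squares mark the 2 populations of a line) and a dashed line at the filter value of 4.46. All joining lines run down from D to U except 1 for CCL5 probe set 204655_at in KYSE180, where 180D replicate 2 read 4.58 and 180U replicate 1 read 4.70.

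CCL5 is also made by T cells, so the levels of leukocyte markers are given beside it. Their summed level over the 9 genes with a probe set was 7.21 to 7.31 in 30D and 7.28 to 7.34 in 30U on the log2 scale. Of these genes 3 (CD3E, CD3D and ITGAM) passed the filter, and PTPRC, the pan-leukocyte gene, averaged 2.96 in 30D and 3.07 in 30U. In KYSE180 the summed level of the 9 was 7.39 to 7.44 in 180D and 7.29 to 7.31 in 180U. The part of leukocytes in the change of CCL5 was not tested in either line.

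Among the neutrophil-attracting chemokines beside CXCL8, CXCL1 differed by line and passed no test between D and U. It read 8.65 and 8.74 in 180D, against 8.93 and 8.62 in 180U. In KYSE30 it read 4.36 and 4.54 in 30D, against 4.44 and 4.23 in 30U. The D and U arrays overlapped in both lines, with differences of -0.08 in KYSE180 (95% interval -0.36 to 0.21, limma adjusted p = 0.781) and 0.12 in KYSE30 (95% interval -0.17 to 0.40, limma adjusted p = 0.571).

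CXCL2 read 4.98 and 5.43 in 180D, against 4.84 and 4.72 in 180U. It read 3.94 and 3.89 in 30D, against 3.96 and 3.92 in 30U. The groups parted in KYSE180 but not in KYSE30, where all values lay below the filter value. The difference of 0.42 ± 0.13 in KYSE180 did not pass (limma adjusted p = 0.142), while without 180D replicate 1 it was 0.65 and passed (limma adjusted p = 0.0198). Its probe set name ends in _x_at, Affymetrix's mark for probes that can match transcripts of other genes, and near-identical copies such as CXCL1 and CXCL3 could contribute to it. The name of the CXCL8 probe set used ends in the same way. The other CXCL2 probe sets stayed between 2.93 and 3.33 on all arrays.

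CXCL3, below the filter by its mean, read 4.94 and 5.14 in 180D, against 4.62 and 4.26 in 180U. It read 4.13 and 4.21 in 30D, against 4.26 and 3.87 in 30U. The KYSE180 groups did not overlap and those of KYSE30 did. CXCL5 lay between 2.25 and 3.01 on all arrays and in all groups, which is far below the filter value.

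CXCL10, which attracts activated T cells through CXCR3, also lay below the filter value on all arrays. It read 4.44 and 4.07 in 180D, against 3.92 and 3.91 in 180U. It read 4.33 and 3.96 in 30D, against 3.82 and 3.46 in 30U. The D arrays stood above the U arrays in both lines, at levels that cannot be parted from background here. CCL20, the ligand of CCR6, read 2.94 and 3.27 in 180D, against 2.79 and 2.69 in 180U, and 2.69 and 2.53 in 30D, against 2.60 and 2.70 in 30U.

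CXCL16 and CX3CL1 are the 2 chemokines made as membrane-anchored proteins that proteases such as ADAM10 and ADAM17 release. CXCL16, the ligand of CXCR6, read 8.32 and 8.14 in 180D, against 7.99 and 7.90 in 180U. It read 6.25 and 6.34 in 30D, against 6.28 and 6.20 in 30U. The KYSE180 groups did not overlap, but the difference of 0.28 ± 0.08 did not pass (limma adjusted p = 0.111), and the difference in KYSE30 was 0.05 ± 0.08 (limma adjusted p = 0.709).

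CX3CL1, or fractalkine, the ligand of CX3CR1, read 6.18 and 6.07 in 180D, against 6.22 and 6.31 in 180U. It read 5.52 and 5.49 in 30D, against 5.36 and 5.36 in 30U. The D arrays read below the U arrays in KYSE180 and above them in KYSE30, but neither difference passed, at -0.14 ± 0.06 (limma adjusted p = 0.265) in KYSE180 and 0.15 ± 0.06 (limma adjusted p = 0.158) in KYSE30. The difference between these changes was -0.29 ± 0.09 (limma adjusted p = 0.0769). With each array centred on its median it was -0.31 and passed (limma adjusted p = 0.0459). The second CX3CL1 probe set, 823_at, read 6.54 and 6.03 in 180D, against 6.67 and 6.45 in 180U, and 4.66 and 4.53 in 30D, against 4.42 and 4.69 in 30U, with overlap in both lines.

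**Figure D3:**
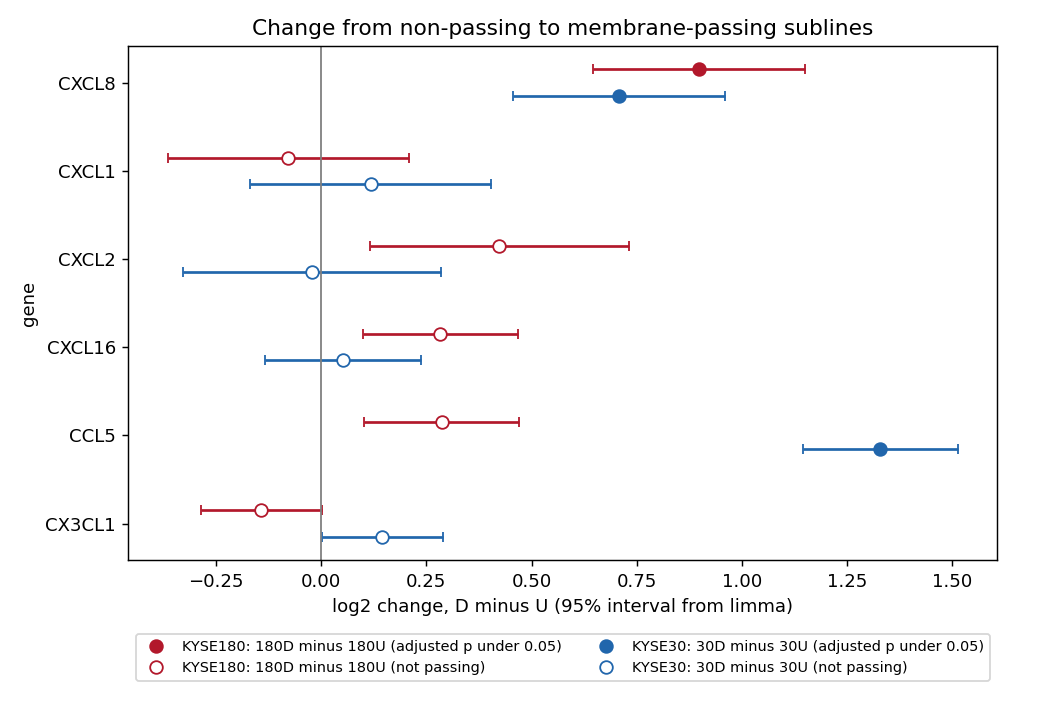
Log2 change, D minus U (horizontal axis), of the 6 tested chemokine genes in KYSE180 and KYSE30 with 95% intervals from limma, filled points passing an adjusted p of 0.05. The filled points are CXCL8 in both lines, at 0.90 and 0.71, and CCL5 in KYSE30, at 1.33.

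Across the tested members, 1 of 6 was higher in 180D than in 180U, where 2.55% of all 14180 genes were called higher and 1.21% lower (3.75% in either direction). In KYSE30, 2 of 6 were higher in 30D than in 30U, where 8.42% of all genes were called higher and 8.12% lower (16.5% in either direction). Blocking on parental population left 230 genes called in KYSE180, against 532 without the block. No call within a line was in the other direction, and at an unadjusted p of 0.05 the only further members were CXCL2, CXCL16 and CCL5 in KYSE180 and CX3CL1 in KYSE30, all higher in D. The median change of the 6 was 0.29 in KYSE180 and 0.13 in KYSE30, beside 0.02 and 0.01 for all genes tested. The change differed between the lines for 1 of 6 members, CCL5, lower in KYSE180, where 5.21% of all genes were called in that direction and 6.94% in the other (12.2% in all). The members were chosen with these changes known, so the shares are a description.

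The lines themselves differed in every tested member on the probe set used. Of the 6, 5 were higher in KYSE180 than in KYSE30, where 38.7% of all genes were called higher, and CCL5 was lower, where 32.7% were (71.4% in either direction). Among the 5, CXCL1 and CXCL2 averaged 4.40 and 3.93 in KYSE30, below the filter value, and were tested only through their KYSE180 levels. Their calls as higher in KYSE180 are thus no independent support. CXCL1 led with mean levels of 8.74 in KYSE180 and 4.40 in KYSE30. The KYSE30 mean lay below the filter value, and measured from that value CXCL1 was at least 19.4-fold higher in KYSE180 (limma adjusted p = 8.50e-09).

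CXCL16 was 3.53-fold higher in KYSE180 (1.82 ± 0.06, limma adjusted p = 6.76e-08) and CXCL8 2.95-fold higher (1.56 ± 0.08, limma adjusted p = 7.82e-07). CX3CL1 was 1.69-fold higher (0.76 ± 0.04, limma adjusted p = 1.91e-06), with a larger difference of 1.84 ± 0.12 on its second probe set. CXCL2 was at least 1.45-fold higher on the probe set used, measured from the filter value. Its other probe sets, 230101_at and 1569203_at, averaged 3.17 and 3.11 in KYSE180, against 3.02 and 3.06 in KYSE30, all below the filter value. CCL5 was lower in KYSE180, with means of 4.92 in KYSE180 and 7.17 in KYSE30 (-2.25 ± 0.06, limma adjusted p = 2.28e-08). The arrays of a line come from 1 line each, so these p-values measure the spread between its sublines.

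**Figure D4:**
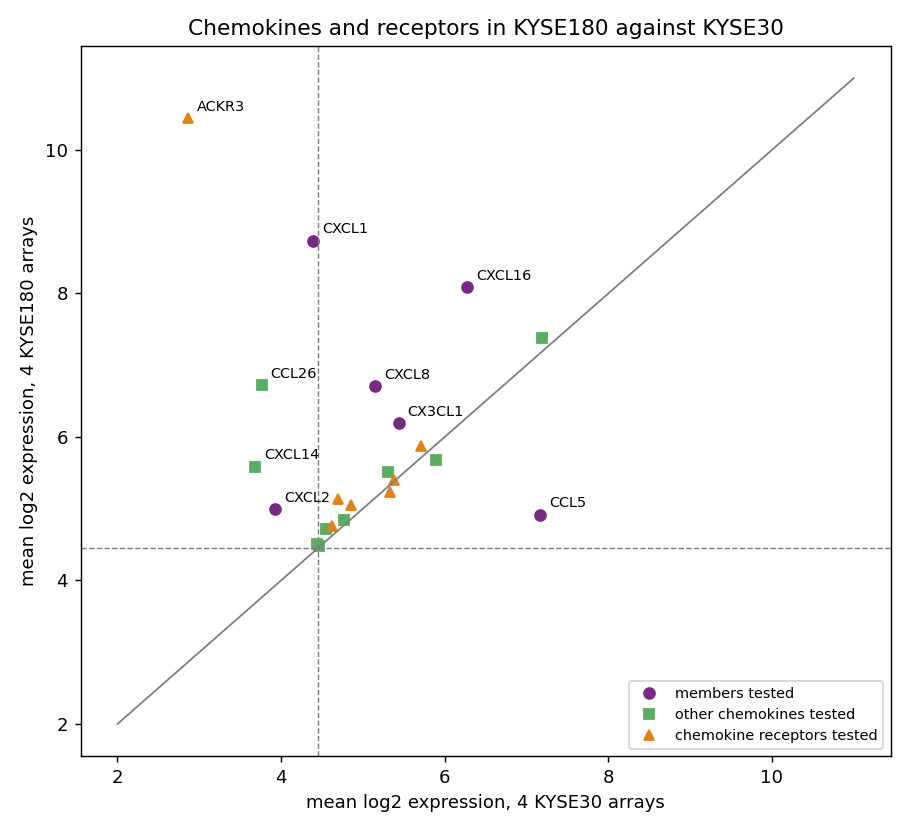
Mean log2 expression over the 4 KYSE180 arrays (vertical axis) against that over the 4 KYSE30 arrays (horizontal axis) for the tested chemokine members (circles), other tested chemokines (squares) and tested chemokine receptors (triangles), with the line of equality and dashed lines at the filter value of 4.46. Of the named points only CCL5 lies below the line of equality, and ACKR3 and CXCL1 lie farthest above it.

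Few other genes of the chemokine system passed the filter, which is no detection call. Of the receptor list, 7 of 21 genes with a probe set passed the filter. CXCR2, the shared receptor of the neutrophil-attracting chemokines, did not, and read 2.66 in 180D, 2.67 in 180U, 2.52 in 30D and 2.55 in 30U. CXCR1, which also binds CXCL8, passed the filter and averaged 5.13 in 180D, 5.34 in 180U, 5.35 in 30D and 5.32 in 30U. ACKR3, an atypical receptor that takes up CXCL12, was the brightest receptor of the list in KYSE180. It averaged 10.22 in 180D and 10.66 in 180U, but 2.89 in 30D and 2.83 in 30U. It passed the filter only through KYSE180, where it was at least 63.3-fold higher measured from the filter value. It fell in 180D (-0.45 ± 0.09, limma adjusted p = 0.0384). Of the 7 tested receptors, ACKR3 was the only one to pass between D and U in KYSE180 by limma, where 3.75% of all genes were called. There 3 of the 7 had an unadjusted p under 0.05. In KYSE30, where 16.5% of all genes were called, 0 of the 7 passed by limma and 1 had an unadjusted p under 0.05.

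Of 34 other chemokines on the list 29 had a probe set and 9 were tested. Of the 9, 1 passed between D and U in each line, where 3.75% of all genes were called in KYSE180 and 16.5% in KYSE30. CXCL14, a chemokine of normal squamous epithelium, averaged 5.15 in 180D and 6.02 in 180U and fell by 0.86 (limma adjusted p = 0.0191), while both KYSE30 groups lay below the filter value. CCL24 averaged 4.73 in 30D and 4.38 in 30U, the second below the filter value, and was at least 1.21-fold higher in 30D measured from that value (limma adjusted p = 0.0278). CCL26, an eosinophil attractant, was at least 4.80-fold higher in KYSE180 than in KYSE30, and it passed the filter only through KYSE180.

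Of the NF-kB pathway list, 0 of 15 tested genes passed in KYSE180 by limma, with 6 at an unadjusted p under 0.05. In KYSE30 3 rose and 1 fell. The share of all genes called in either direction was 3.75% in KYSE180 and 16.5% in KYSE30, and it applies to each list below. The 3 that rose, TNIP1 (0.34), NFKBIE (0.31) and CYLD (0.29), are known as restraints of the pathway, as is NFKBIA, which fell by 0.28. The subunit gene RELA changed by 0.07 ± 0.08 in KYSE180 and -0.02 ± 0.08 in KYSE30, and neither passed (limma adjusted p = 0.703 and 0.893). NF-kB is controlled mainly by the location of its proteins, which these arrays do not measure.

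Of 11 AP-1 and C/EBP genes, 3 passed as higher in 180D. They were ATF3 (0.55), CEBPB (0.28) and FOS, whose means in 180D and 180U both lay below the filter value, so that no size is given for it. In 30D JUN and FOSL1 rose by 0.57 and 0.72, and ATF3, JUND and FOS fell by 0.84, 0.36 and 0.23. Among 17 tested upstream cytokines and receptors, IL1RN, the interleukin-1 receptor antagonist, rose in 30D (1.44 ± 0.07, limma adjusted p = 8.90e-05) with the interferon receptor subunits IFNGR2 (0.42) and IFNAR1 (0.26). TLR3 and IL1RAP rose in 180D (0.41 and 0.42). The interleukin-1 genes IL1A and IL1B passed in neither line.

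Of 9 tested interferon signalling factors, IRF9, a subunit of the interferon-activated factor ISGF3, rose in 180D (0.54, limma adjusted p = 0.00233) and in 30D (0.91, limma adjusted p = 0.000113), and IRF2 rose in 30D (0.22). The rise of IRF9 was smaller in KYSE180 than in KYSE30 (-0.37, limma adjusted p = 0.0196). Of 7 tested genes of chemokine release and surface binding, SDC4, RHBDF2 and MMP9 rose in 30D (0.36, 0.41 and 0.26) and the sheddase ADAM17 fell by 0.22, where 16.5% of all genes were called. In KYSE180, where 3.75% of all genes were called, 0 of these 7 passed by limma and 2 had an unadjusted p under 0.05. Of 8 tested genes of AU-rich transcript decay, which shortens the life of chemokine mRNAs, ZFP36 rose in 30D (0.48) and ZFP36L2 in 180D (0.27).

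After the mean of each line was subtracted, the genes most like CXCL8 over the 8 arrays, among 699 with an SD of at least 0.25, were ANXA3 (Pearson's r = 0.986), SFTA1P (0.976) and PTPRB (0.968). Those most like CCL5 were KCTD12 (r = 0.998), PARP9 (0.994) and ISG15 (0.994), the last 2 being interferon-induced genes. These correlations across arrays are descriptive and rest on the 4 groups, which the arrays of a group share.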

How the data were processed

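RNA of 8 sublines was hybridised to Affymetrix arrays. The authors deposited log2 values, for which the submitters' processing notes name RMA, with no version given. RMA equalises the arrays' distributions and shrinks differences between dim genes.

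Of 54675 probe sets, 41091 carried a single gene symbol in the platform annotation, 1801 several and 11721 none, beside 62 controls. A RefSeq table (GRCh38.p14) matched 41037 of them by Entrez ID and gave current symbols. The brightest probe set by mean stood for each gene, and 14180 of 19775 genes with a mean at or above the 40th percentile of all probe sets, 4.46, were tested. A fold against a group mean below that value was measured from it as a lower bound.

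The 4 group means were fitted in R 4.3.3 with limma 3.58.1 (functions lmFit and eBayes; two-sided tests), with Benjamini-Hochberg adjustment over all tested genes and a threshold of 0.05. The number of arrays limits the precision. The fit was tested on simulated data with 1 common mean per gene in all groups and changes put into 30D only. It called 60% of 100 genes changed by 0.5 and 92% of 100 genes changed by 1, among 14180. In the real data 2346 genes were called between 30D and 30U, so these shares need not hold there. Single probe sets were tested over all 26781 past the filter.

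Replicate numbers in the titles do not follow the parental populations in KYSE180, where the labels pair 180D replicate 2 with 180U replicate 1 and 180D replicate 1 with 180U replicate 2, so the labelled populations were used as the block. Deviations from the group means of paired arrays correlated at 0.02 in KYSE180 and -0.02 in KYSE30. Alternatives were other filters, the median over probe sets, centred arrays, an intensity trend, the block, fits of 1 line, an additive fit and each array left out.

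The named genes are the 10 members, up to 4 genes of each pathway list with the smallest p among those passing in the comparison described, and the 3 genes most like CXCL8 and CCL5. CXCR1, CXCR2, RELA, IL1A, IL1B, FOS in KYSE30 and the genes named from the cell type marker lists were named after their values were seen. Members and lists were chosen with earlier results of these data known.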

Additional observations from a re-analysis of the deposited data

Results flagged for a closer look

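Of the 6 tested members, CCL5 alone had a D minus U change that differed between lines in a direct test. Its change was 0.29 in KYSE180 and 1.33 in KYSE30, and the difference was -1.04 (limma adjusted p = 0.00221), with a range of -1.13 to -0.96 over the 8 fits that left out 1 array and an adjusted p of at most 0.0133 in them. On the other CCL5 probe sets, tested on their own, the difference was -0.89 for 204655_at, which did not pass (limma adjusted p = 0.0740), and -0.41 for 1405_i_at (limma adjusted p = 0.0460), whose KYSE180 levels were all below the filter value. With the median over probe sets it was -0.93 and did not pass (limma adjusted p = 0.0567). The KYSE180 means, 5.06 in 180D and 4.78 in 180U, lay near the filter value of 4.46, and the part of low signal in the result was not tested.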

How the results depend on the processing

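Of 390 values of single members recomputed under an alternative, 379 kept their direction and their side of the threshold, 5 lost a call, 4 gained one and 2 reversed. Many of these values could not change direction. With no filter, an intensity trend, the block or an array of the other line left out, the estimate of a change within a line stays the same by construction. The reversals were of uncalled differences, CXCL2 in KYSE30 without 30D replicate 2 (0.00068, with -0.044 as the lowest value over the fits that left out 1 array) and CXCL1 in KYSE180 without 180U replicate 1 (0.078, with -0.23 as the lowest). The parental population as a replicate block changed no call of a member, with CXCL8 at an adjusted p of 0.0262 in KYSE180 and 0.0202 in KYSE30. It did move the count of all genes called in KYSE180, from 532 to 230, and that of genes whose change differed between the lines, from 1723 to 1011. With no filter these counts were 311 and 1142, with an intensity trend 1069 and 2700, and with only the KYSE180 arrays 195 genes were called in KYSE180. Members whose change differed between the lines numbered 0 with the median over probe sets, where CCL5 missed the threshold, and 2 with arrays centred on their median, where CX3CL1 joined it. Leaving out 1 array at a time gave 0 to 2 members called in KYSE180, 2 in each fit in KYSE30, 1 to 2 for the difference between the lines and 6 in each fit between the lines. The member count in KYSE180 was 0 without 180U replicate 2 and 2 without 180D replicate 1, where CXCL2 joined CXCL8. CXCL2 also made up the second difference between the lines without 180D replicate 1. Over all genes these fits called 209 to 502 in KYSE180, 834 to 2553 in KYSE30, 727 to 1702 for the difference and 9537 to 10082 between the lines. With no filter the 4 dim members CXCL3, CXCL5, CXCL10 and CCL20 did not pass between D and U in either line (adjusted p of 0.141 or more). Testing each probe set on its own was chosen after seeing the data. The causes of these shifts were not tested, and signal near background limits CXCL2 and the dim members most.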
